A study of Homo sapiens with 9 samples.

Results

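The 35 genes described here act at the G1/S boundary and in DNA replication and are known as targets of the E2F transcription factors. They were taken as a named list, and all 35 were among the 56865 genes whose reads were summed and the 13914 genes tested. By role, 9 load or form the replicative helicase (licensing), 13 act at the replication fork, 4 supply nucleotides, 5 regulate entry into S phase, and 4 serve chromatin, histone mRNA and DNA repair. Cells labelled BxPC3, a human pancreatic adenocarcinoma line, received MS172, PK9328 or the vehicle DMSO. Sequencing of poly(A) RNA gave 3 libraries for each group. PK9328 is a small molecule, and MS172 is the compound that the series design sets against DMSO. The treatment protocol gives 5 µM and 6 h, but it names PK9328 and MS78, so for MS172 this dose and time hold only if MS78 is a second name for it, which the labels do not say. Nothing in the labels says that replicates came from separate cultures, and p-values then measure only the spread between these libraries.

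In G1, the origin recognition complex, CDC6 and CDT1 place the MCM helicase on DNA, a step called licensing. In S phase, CDC45 and the GINS complex turn the helicase on, polymerases copy the strands with the sliding clamp PCNA, and ribonucleotide reductase, TYMS and TK1 make the deoxynucleotides. E2F proteins drive most of these genes once cyclin E and its kinase relieve the block by RB, and the kinase inhibitor p21 (CDKN1A) is known to hold the same genes down. In bulk RNA, fewer cells in S phase and less RNA per cell cannot be told apart.

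The promoters were searched for letters that E2F proteins are known to bind. RefSeq promoters (GRCh38.p14, 250 bases before to 50 after each start) were found for 32 of the 35 genes. The E2F letters TTTCCCGC, TTTGGCGC, TTTGCCGC or TTTCGCGC, on either strand, occurred in 19 of these 32 (59.4%), against 908 of all 27305 promoters (3.33%) and 547 of the 9975 promoters matched to tested genes (5.48%). The genes were listed as E2F targets, so this share follows from the choice of list. Windows are printed for the 3 genes with the smallest p-values against DMSO with PK9328 among those with a match, and for MCM6, which holds the most matches (4) and was chosen after its values were seen. Capitals mark the E2F letters on either strand. Overlapping matches share capitals, as in MCM2 and in both blocks of MCM6, and positions count from the RefSeq start.
MCM2 (chr3:127598399-127598428, plus strand, -12 to 18): tcacgtgaaccactTTTCGCGCGAAAcctg
UHRF1 (chr19:4909471-4909500, plus strand, -30 to -1): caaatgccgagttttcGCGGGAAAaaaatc
PCNA (chr20:5126627-5126742, minus strand, -120 to -5): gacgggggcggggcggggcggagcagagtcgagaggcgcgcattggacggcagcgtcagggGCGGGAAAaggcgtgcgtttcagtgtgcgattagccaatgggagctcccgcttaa
MCM6 (chr2:135876514-135876613, minus strand, -170 to -71): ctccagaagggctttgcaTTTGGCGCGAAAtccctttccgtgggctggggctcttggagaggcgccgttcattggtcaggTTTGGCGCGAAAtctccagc

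In 15 of the genes at least 1 E2F match ended before the start, and 5 genes held 2 or more. The CCAAT letters, on either strand, were in 20 of the 32 promoters (62.5%), against 35.7% of all promoters and 36.6% of those matched to tested genes. The letters TTTGAA (the CHR element of late cell cycle genes) were in 1 of the 32 (3.13%), against 15.4% of all promoters and 9.22% of those matched to tested genes. A match is a description of these letters and not a bound site.

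The libraries held 24077353 to 28031886 estimated reads. Estimated fragment length was 274.4 to 293.1 bases with MS172, 249.8 to 263.2 with PK9328 and 281.5 to 289.4 with DMSO, so all 3 PK9328 libraries had shorter fragments than the other 6. The markers of the labelled cell type were mixed, with most ductal epithelial markers near 0 and the mesenchymal genes VIM and COL1A2 high. Whether the cell line label is right was not tested. Of 18 ductal epithelial markers, 11 were under 1 CPM (counts scaled for library depth) in every library. Among these were KRT7 at up to 0.103, EPCAM at up to 0.0745 and CDH1 at up to 0.0417. In contrast, KRT8 averaged 732, KRT18 785, KRT19 311, SOX9 289 and CLDN4 122 CPM with DMSO. The ductal markers summed to 2630.4 to 2794 CPM with MS172, 2019.8 to 2100.2 with PK9328 and 2167 to 2336 with DMSO, and CLDN4 rose by 71.6% with MS172 (edgeR adjusted p = 1.84e-15). Of 12 mesenchymal markers, 7 were also under 1 CPM in every library, among them FN1 and CDH2. With DMSO, VIM averaged 9391, COL1A2 2416, ZEB1 91.8, COL3A1 6.64 and COL1A1 1.41 CPM. The summed level of the 12, most of it VIM, was 12405 to 12928 CPM with MS172, 9984 to 10252 with PK9328 and 11793 to 11971 with DMSO. The ductal and the mesenchymal sums thus both moved with treatment, and their part in the results below was not tested. All 5 endothelial and 5 of 7 leukocyte markers, PTPRC among them, were under 1 CPM in every library.

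As a group, the replication genes were lower with PK9328, while with MS172 single genes went in both directions. Against DMSO, 15 of the 35 fell with PK9328 and 0 rose (edgeR adjusted p under 0.05), where 15.5% of all tested genes were called, 7.48% of them lower and 7.98% higher. Their median log2 fold change was -0.15, against 0.00 over all tested genes, and 31 of the 35 values were below 0. With MS172, 7 rose and 4 fell, or 31.4% of the genes, against 35.1% of all tested genes (17.9% higher and 17.2% lower). The median with MS172 was -0.03, against -0.02 over all tested genes. The split of rises and falls with MS172 depends on the scaling. With scaling to library totals alone only TK1 still rose, and all other calls were falls. The members' median and that over all tested genes were then both -0.13. Both comparisons share the 3 DMSO libraries, so their values are not independent.

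In the direct comparison of the compounds, 21 of the 35 were higher with MS172 than with PK9328 and 2 were lower (edgeR adjusted p under 0.05), or 65.7%, where 47.7% of all tested genes were called (23.3% higher and 24.4% lower). The median was 0.17, against -0.03 over all tested genes. Scaling to library totals alone, in place of TMM (trimmed mean of M-values), lowered both medians, to 0.03 and -0.17, and left them 0.19 apart. Under library totals only CDT1, MCM7, PCNA, FEN1, TK1 and E2F1 still passed as higher, and more of the 35 passed as lower. Over all tested genes that scaling gave 1302 higher and 5747 lower. With each library's fragment length as a covariate, only CDT1, MCM7, PCNA, FEN1 and TK1 passed as higher and E2F2 as lower. Calls over all tested genes then went from 6641 to 2462. By library, the PK9328 values of 21 genes lay wholly below the DMSO values and those of 0 genes wholly above, where 15.4% and 15.9% of all tested genes did so. With MS172, 8 lay wholly above DMSO and 9 wholly below, where 22.0% and 22.7% of all tested genes did so. MS172 libraries lay wholly above PK9328 libraries for 21 genes and wholly below for 3, against 26.3% and 29.1% of all tested genes.

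**Figure D1:**
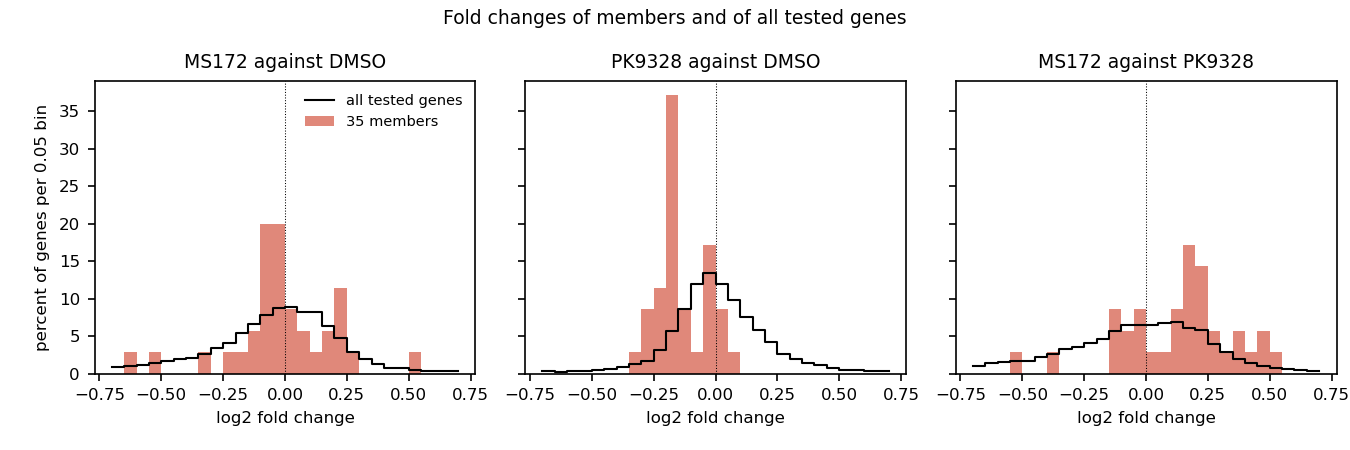
Distribution of edgeR log2 fold changes (x axis) as the percent of genes per bin of 0.05 (y axis) for the 35 replication genes (bars) and all 13914 tested genes (line), in the 3 comparisons. Of the 35 genes, 31 lie below 0 and 4 above for PK9328 against DMSO (median -0.15). For MS172 against PK9328 25 lie above 0 and 10 below (median 0.17). For MS172 against DMSO 14 lie above and 21 below (median -0.03).

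The calls with PK9328 against DMSO cannot be told apart from fragment length, and the PK9328 libraries bring the same limit to the comparison of the compounds. With each library's fragment length as a covariate, 0 of the 15 calls remained, while the members' median was still -0.15. Over all tested genes the calls also went from 2151 to 175, so this loss was not particular to the members. The covariate overlaps with the treatment, because no PK9328 library had fragments as long as any other library. Calls made on counts rebuilt from length-scaled TPM (the deposited level per transcript length) were 7 among the members, at a median of -0.10, and 1080 over all genes tested. The calls of CDT1, MCM4, MCM5, POLE, RRM1, RRM2, TK1 and SLBP were lost there, and those of MCM2, MCM3, MCM7, PCNA, RFC3, TYMS and UHRF1 were kept.

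Summed over all 35 genes, the level was 2050 to 2088 CPM with MS172, 1808 to 1844 CPM with PK9328 and 2043 to 2062 CPM with DMSO. In this TMM-scaled sum the PK9328 libraries lay below the DMSO libraries and the MS172 libraries overlapped with them. Summed as deposited TPM, a level per transcript length without TMM scaling, the genes stood at 1058 to 1080.3 TPM with MS172, 1069 to 1119.95 TPM with PK9328 and 1139.7 to 1190.2 TPM with DMSO, so on that scale the libraries of both compounds lay below DMSO. Licensing genes summed to 835 ± 13.2 CPM with MS172, 726 ± 10.0 with PK9328 and 828 ± 3.71 with DMSO (SD, n = 3 each). Fork genes summed to 505 ± 3.37, 450.2 ± 8.53 and 497 ± 0.760 CPM in the same order of groups. Nucleotide supply genes summed to 443 ± 6.60 CPM with MS172, 381 ± 4.10 with PK9328 and 433 ± 10.2 with DMSO. In each of these 3 classes all PK9328 libraries lay below all DMSO libraries, and as summed TPM the MS172 libraries did so too (licensing 326 to 341 TPM with MS172, against 348 to 375 with DMSO).

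**Figure D2:**
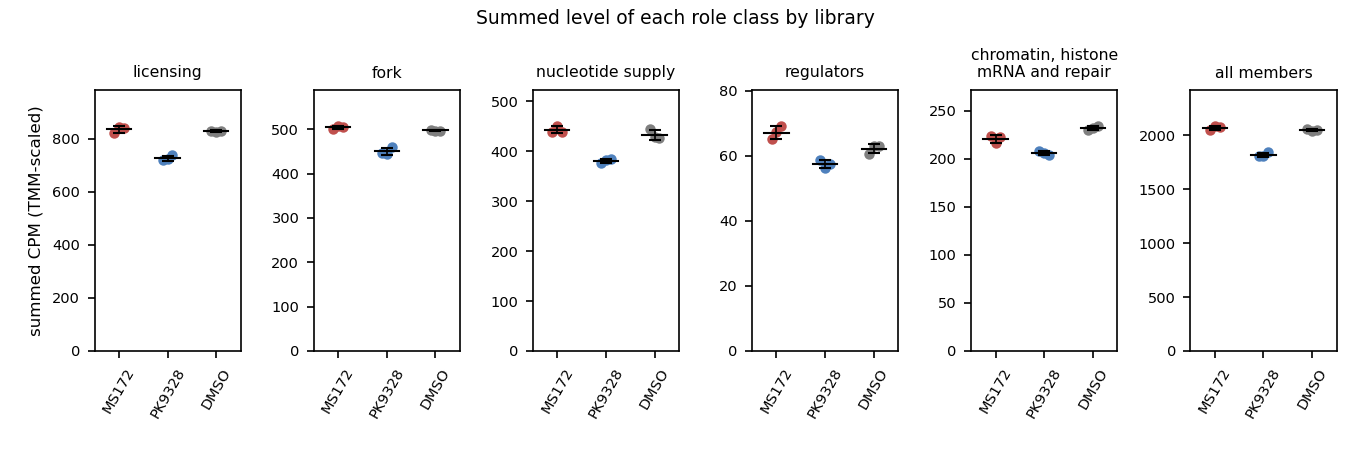
Summed level of each role class in CPM (y axis, from 0) for the 3 MS172, 3 PK9328 and 3 DMSO libraries; points are libraries, the line is the mean and the bar is ± 1 SD. Over all 35 genes the PK9328 libraries sit at 1808 to 1844 CPM, below the DMSO libraries at 2043 to 2062 CPM, and the MS172 libraries at 2050 to 2088 CPM overlap with DMSO.

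Set side by side, 4 of 4 nucleotide supply genes fell with PK9328, 6 of 9 licensing genes and 3 of 13 fork genes. Over all tested genes 7.48% fell. The class medians were -0.17, -0.19 and -0.14. With length-scaled TPM the calls of RRM1, RRM2, TK1, CDT1, MCM4, MCM5 and POLE were lost. With the fragment length covariate every call in these classes was lost. Of the 5 regulators 0 passed the test with PK9328 (median -0.03), and of the 4 chromatin and repair genes 2 fell (median -0.15). With MS172 against DMSO the counts were 2 higher and 1 lower for licensing, 2 and 1 for fork, 1 and 0 for nucleotide supply, 2 and 1 for regulators and 0 and 1 for chromatin and repair. Over all tested genes 17.9% were higher and 17.2% lower. No test of the classes against each other was made, since genes of a class are not replicates. As levels per transcript length, MCM7 and PCNA stood highest with DMSO, at 122 and 113 TPM, and E2F2 and CCNE2 lowest, at 2.33 and 0.837 TPM.

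**Figure D3:**
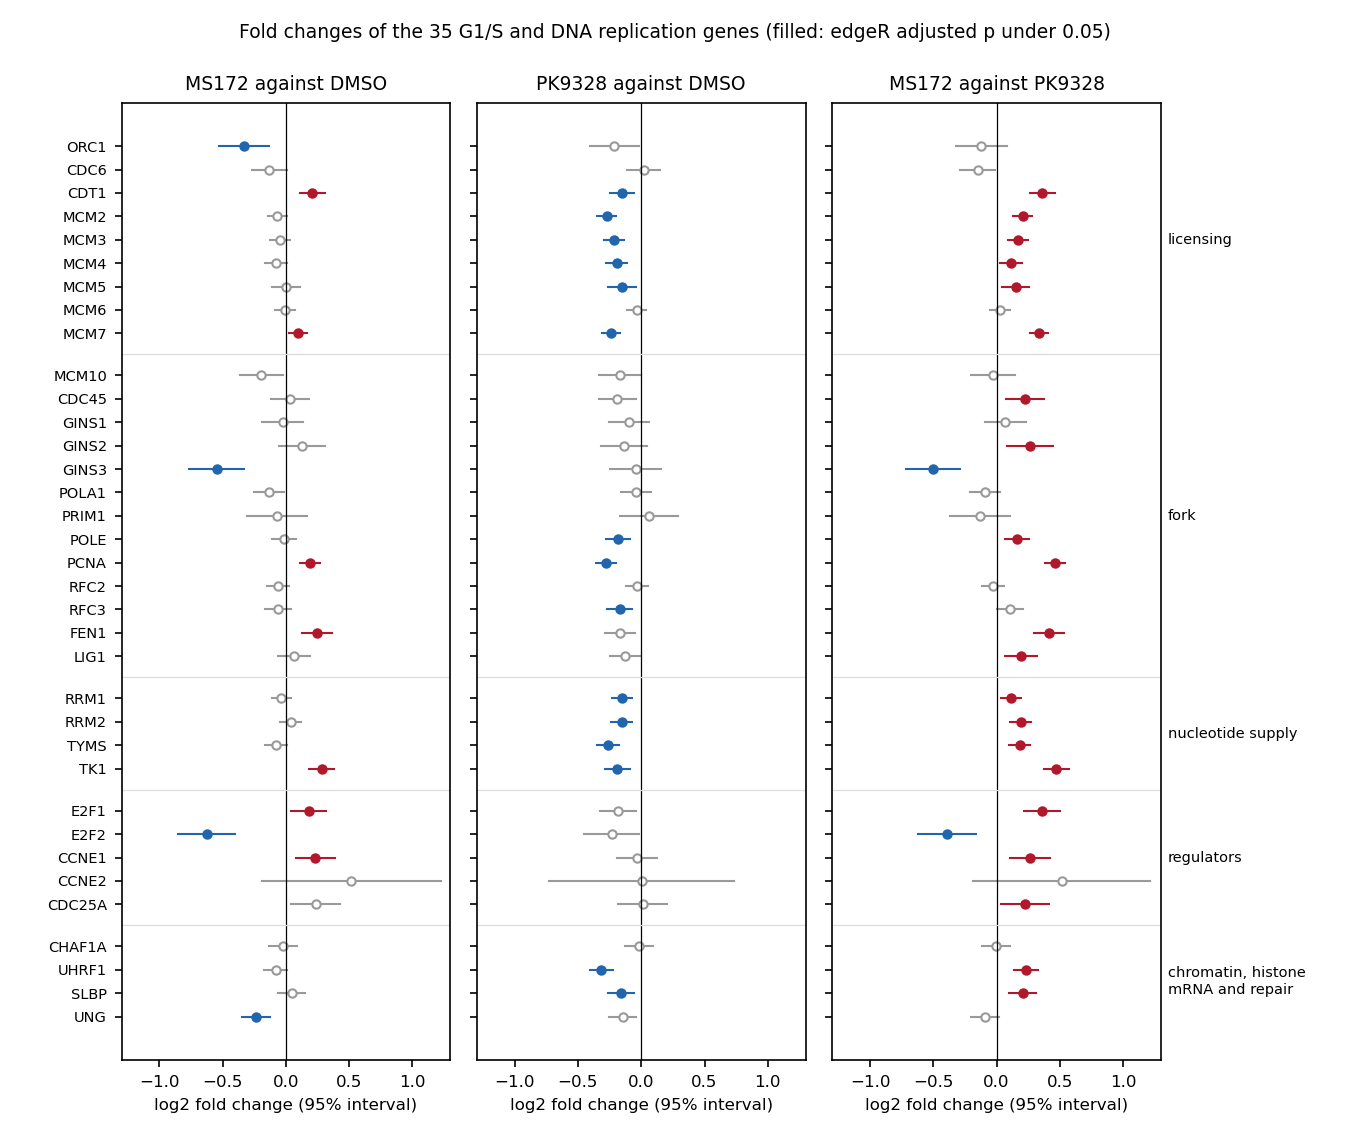
Log2 fold change with its 95% interval (x axis) of each of the 35 genes (rows, grouped by role) for MS172 against DMSO, PK9328 against DMSO and MS172 against PK9328; filled points passed the edgeR test at an adjusted p under 0.05. Filled points in the PK9328 panel all lie below 0 (15 genes), whereas the MS172 against DMSO panel has 7 above and 4 below 0.

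Among the licensing genes, 5 of the 6 MCM helicase subunits fell with PK9328, by up to 17.3%, and MCM6 did not pass, while CDT1 differed in sign between the compounds. CDT1, the loader that brings the MCM helicase to origins (chromosome 16, 88803213 to 88809258 in GENCODE 29 on GRCh38), had 63.4, 69.0 and 64.9 CPM with MS172, 51.1, 49.7 and 52.6 CPM with PK9328, and 57.9, 56.1 and 56.6 CPM with DMSO. Every MS172 library was above, and every PK9328 library below, all DMSO libraries. It rose by 0.21 on the log2 scale with MS172 (SE 0.05, edgeR adjusted p = 0.00084) and fell by 0.15 with PK9328 (SE 0.05, edgeR adjusted p = 0.0242). The PK9328 call was lost without DMSO replicate 1 or 3 or PK9328 replicate 1 or 2 (edgeR adjusted p = 0.0999, 0.0522, 0.0667 and 0.128). With library totals in place of TMM the rise with MS172 was 0.10 and the fall with PK9328 was 0.12 on the log2 scale (edgeR adjusted p = 0.0855 and 0.0867), and from length-scaled TPM the rise with MS172 was 0.18 (edgeR adjusted p = 0.175). Between the compounds CDT1 was 28.6% higher with MS172 (log2 0.36, edgeR adjusted p = 2.3e-07).

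MCM2, the helicase subunit whose promoter window is printed above (chromosome 3, 127598223 to 127622436), had 123, 128 and 126 CPM with MS172, 108, 109 and 109.6 CPM with PK9328, and 131, 129.7 and 134 CPM with DMSO. The PK9328 libraries lay below all others. It fell by 17.3% with PK9328 (log2 -0.27, SE 0.04, edgeR adjusted p = 3.5e-06), and with MS172 its log2 fold change was -0.07 (95% interval -0.14 to 0.01). MCM3, another subunit (chromosome 6, 52264009 to 52284881), had 100.5, 103 and 103 CPM with MS172, 88.7, 91.5 and 92.1 CPM with PK9328, and 106, 103 and 106 CPM with DMSO. It followed the same pattern and fell by 13.7% with PK9328 (log2 -0.21, SE 0.04, edgeR adjusted p = 0.00023), whereas with MS172 it was at -0.04 (95% interval -0.12 to 0.03). MCM2 shares exon sequence with TPRA1 on the opposite strand, so a part of its reads is uncertain.

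MCM7 (chromosome 7, 100092728 to 100101940) was the most abundant of these genes, with 270.5, 279 and 277 CPM with MS172, 212, 217 and 226 CPM with PK9328, and 256, 256 and 262 CPM with DMSO. It fell by 15.4% with PK9328 (log2 -0.24, SE 0.04, edgeR adjusted p = 1.3e-05). With MS172 it rose by 0.09 (SE 0.04, edgeR adjusted p = 0.036), but this call turned to -0.12 (edgeR adjusted p = 0.0263) when only coding transcripts were summed, and the value to -0.01 with library totals. It was also lost without MS172 replicate 2 or 3 or DMSO replicate 1 or 2 (edgeR adjusted p = 0.112, 0.0805, 0.0877 and 0.0794). Its exons overlap AP4M1 on the opposite strand.

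The other MCM subunits were smaller in their differences. MCM4 fell by 0.19 with PK9328 (edgeR adjusted p = 0.00138; -0.02 and edgeR adjusted p = 0.919 from length-scaled TPM) and MCM5 by 0.15 (edgeR adjusted p = 0.0486). MCM5 lost its call in 13 of 20 alternatives, among them without DMSO replicate 1 or 2 or PK9328 replicate 1 or 3 (edgeR adjusted p = 0.244, 0.0607, 0.102 and 0.217). MCM6, with 4 E2F matches in its promoter, had 112, 110.1 and 112 CPM with MS172, 111, 106 and 110.3 CPM with PK9328, and 111, 114 and 111 CPM with DMSO, and its groups overlapped. Its log2 fold change was -0.01 with MS172 (95% interval -0.09 to 0.07) and -0.04 with PK9328 (95% interval -0.11 to 0.04), so the interval with PK9328 does not reach the fold change of MCM2. A test of MCM6 against MCM2 was not made.

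ORC1, the largest subunit of the origin recognition complex (chromosome 1, 52372829 to 52404459), had 8.28, 9.19 and 9.76 CPM with MS172, 9.73, 10.5 and 9.31 CPM with PK9328, and 12.0, 11.5 and 10.8 CPM with DMSO. Every compound library was below the DMSO libraries. It fell by 20.7% with MS172 (log2 -0.33, SE 0.10, edgeR adjusted p = 0.00772), and without MS172 replicate 1 it was at -0.27 (edgeR adjusted p = 0.0566). With PK9328 it was at -0.21 (95% interval -0.41 to -0.02, edgeR adjusted p = 0.129). CDC6, which acts with ORC1 at origins, was at -0.13 with MS172 (95% interval -0.27 to 0.01) and 0.02 with PK9328 (95% interval -0.11 to 0.15).

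At the fork, PCNA and FEN1 were higher with MS172, and GINS3 was lower. PCNA, the sliding clamp (chromosome 20, 5114953 to 5126626), had 116, 118 and 113 CPM with MS172, 85.1, 82.9 and 83.2 CPM with PK9328, and 98.6, 104 and 102 CPM with DMSO. Its 3 groups did not overlap, with MS172 on top and PK9328 at the bottom. PCNA rose by 13.8% with MS172 (log2 0.19, SE 0.04, edgeR adjusted p = 0.00038; 0.08 and edgeR adjusted p = 0.113 with library totals). With PK9328 it fell by 17.5% (log2 -0.28, SE 0.04, edgeR adjusted p = 8.7e-06).

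FEN1, the flap endonuclease that trims Okazaki fragments (chromosome 11, 61792637 to 61797244), had 39.0, 43.0 and 38.4 CPM with MS172, 31.4, 27.9 and 31.1 CPM with PK9328, and 33.5, 34.6 and 33.4 CPM with DMSO. These groups did not overlap either. FEN1 rose by 0.24 with MS172 (SE 0.06, edgeR adjusted p = 0.00152), with 0.14 (edgeR adjusted p = 0.0672) under library totals. With PK9328 it was at -0.17 (95% interval -0.29 to -0.05, edgeR adjusted p = 0.0514). FEN1 shares exon sequence with FADS2 and TMEM258, so its count is uncertain.

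GINS3, a subunit of the GINS complex that activates the helicase (chromosome 16, 58295080 to 58406144), had 6.81, 7.99 and 6.55 CPM with MS172, 9.84, 9.85 and 10.6 CPM with PK9328, and 9.50, 10.5 and 11.2 CPM with DMSO. Only the MS172 libraries were low. It fell by 31.7% with MS172 (log2 -0.55, SE 0.10, edgeR adjusted p = 0.00014), a call that was kept in all 20 alternatives, and with PK9328 it was at -0.04 (95% interval -0.25 to 0.16). The other GINS subunits among the members did not pass against DMSO: with MS172, GINS1 was at -0.03 (95% interval -0.19 to 0.14) and GINS2 at 0.13 (95% interval -0.05 to 0.31).

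POLE, the catalytic subunit of the leading-strand polymerase (chromosome 12, 132623753 to 132687365), had 71.8, 69.4 and 77.5 CPM with MS172, 63.8, 65.5 and 66.1 CPM with PK9328, and 75.8, 74.1 and 71.6 CPM with DMSO. PK9328 libraries were below the others. POLE fell by 0.18 with PK9328 (SE 0.05, edgeR adjusted p = 0.00644), but counts from length-scaled TPM gave 0.10 (edgeR adjusted p = 0.579). RFC3, a subunit of the clamp loader (chromosome 13, 33818049 to 33966558), had 41.1, 41.6 and 42.9 CPM with MS172, 39.5, 38.6 and 38.6 CPM with PK9328, and 44.4, 43.4 and 43.4 CPM with DMSO. RFC3 fell by 0.17 with PK9328 (SE 0.05, edgeR adjusted p = 0.0166), and lost the call without DMSO replicate 1 or PK9328 replicate 2 or 3 (edgeR adjusted p = 0.0668, 0.0697 and 0.0521). Its partner RFC2, at 86.1 to 94.4 CPM in the 9 libraries, did not pass in any comparison.

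The nucleotide supply genes were the class in which every member fell with PK9328 by the test on counts. Only TYMS kept that call with length-scaled TPM. TK1, the thymidine kinase of the salvage pathway (chromosome 17, 78174075 to 78187233), had 87.4, 86.2 and 85.3 CPM with MS172, 59.5, 61.6 and 65.6 CPM with PK9328, and 75.5, 66.6 and 70.9 CPM with DMSO. As for PCNA, the 3 groups did not overlap. TK1 rose by 21.6% with MS172 (log2 0.28, SE 0.05, edgeR adjusted p = 2.9e-05), with 0.17 (edgeR adjusted p = 0.111) from length-scaled TPM. It fell by 12.3% with PK9328 (log2 -0.19, SE 0.05, edgeR adjusted p = 0.00674), a call lost without DMSO replicate 1 or PK9328 replicate 1 (edgeR adjusted p = 0.0803 and 0.0547).

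TYMS, thymidylate synthase (chromosome 18, 657604 to 673578), had 89.4, 97.1 and 91.5 CPM with MS172, 83.1, 81.7 and 80.0 CPM with PK9328, and 97.9, 96.6 and 99.2 CPM with DMSO. TYMS fell by 16.6% with PK9328 (log2 -0.26, SE 0.04, edgeR adjusted p = 3.7e-05) and was at -0.08 with MS172 (95% interval -0.16 to 0.00). Exons of TYMS overlap ENOSF1 and TYMSOS on the opposite strand. RRM1, the large subunit of ribonucleotide reductase (chromosome 11, 4094707 to 4138876), had 128, 128 and 131 CPM with MS172, 123, 118 and 117 CPM with PK9328, and 137, 132 and 129 CPM with DMSO. RRM1 fell by 0.15 with PK9328 (SE 0.04, edgeR adjusted p = 0.00548), and the groups with MS172 and DMSO overlapped. From length-scaled TPM the RRM1 value was -0.10 (edgeR adjusted p = 0.194).

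RRM2, the small subunit, fell by 0.15 with PK9328 (SE 0.04, edgeR adjusted p = 0.00913), but its value was 0.07 (edgeR adjusted p = 0.515) from length-scaled TPM. Without DMSO replicate 1 or PK9328 replicate 1 the call was lost (edgeR adjusted p = 0.0611 and 0.0961).

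**Figure D4:**
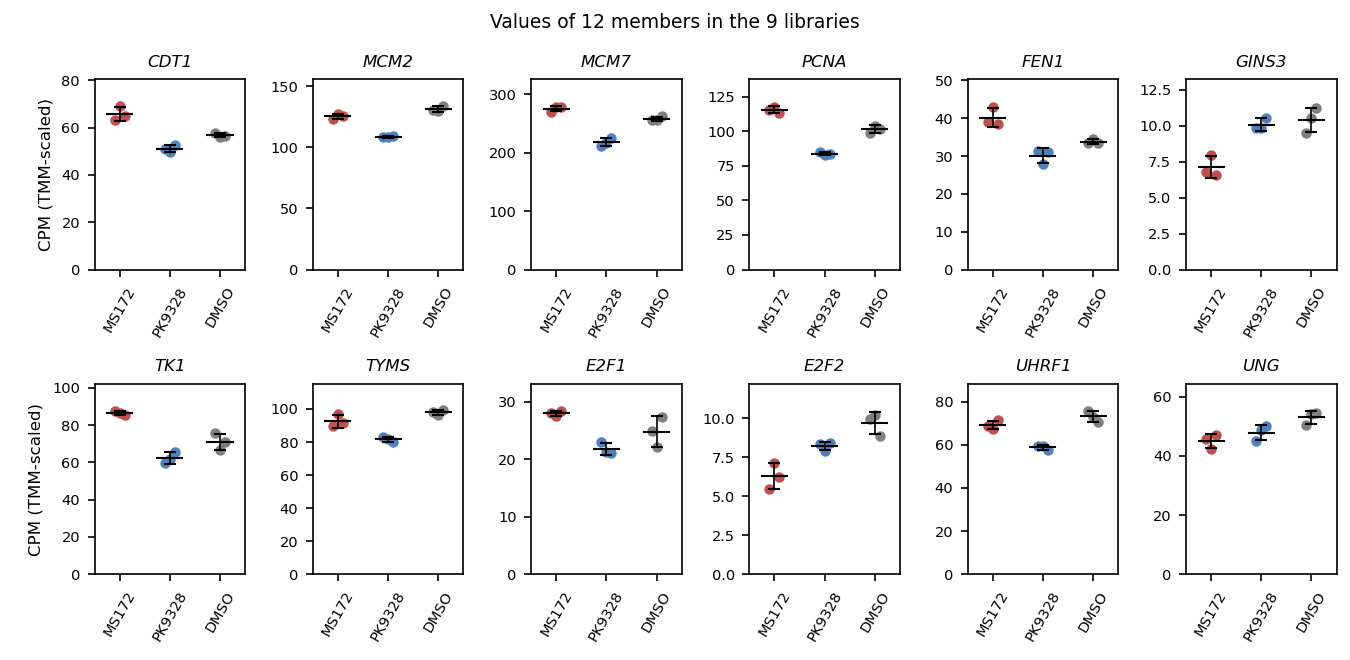
TMM-scaled CPM (y axis, from 0) of 12 of the genes in the 3 MS172, 3 PK9328 and 3 DMSO libraries; points are libraries, the line is the mean and the bar is ± 1 SD. PCNA, TK1, FEN1, CDT1 and MCM7 are ordered MS172, DMSO, PK9328 from high to low with no overlap, while GINS3, E2F2 and UNG lie lower with MS172 than with DMSO.

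Among the regulators, the activator gene E2F2 fell with MS172, while the rise called for the activator gene E2F1 was lost in 11 of 20 alternatives. E2F2 (chromosome 1, 23506430 to 23531220) had 5.47, 7.15 and 6.26 CPM with MS172, 8.33, 7.93 and 8.45 CPM with PK9328, and 9.96, 10.2 and 8.88 CPM with DMSO. Every MS172 library was below every other library. It fell by 35.2% with MS172 (log2 -0.63, SE 0.11, edgeR adjusted p = 5.5e-05), which was kept in all 20 alternatives, and was at -0.24 with PK9328 (95% interval -0.45 to -0.02, edgeR adjusted p = 0.138).

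E2F1 (chromosome 20, 33675683 to 33686404) had 28, 27.6 and 28.4 CPM with MS172, 23.1, 21.3 and 21.1 CPM with PK9328, and 25.0, 22.1 and 27.4 CPM with DMSO. The MS172 libraries lay just above the highest DMSO library, and PK9328 and DMSO overlapped. E2F1 rose by 0.18 with MS172 (SE 0.07, edgeR adjusted p = 0.0427), but 11 of 20 alternatives lost this call. Among them were DESeq2 (adjusted p = 0.0651) and the fits without MS172 replicate 1, 2 or 3 or DMSO replicate 1 or 2 (edgeR adjusted p = 0.0912, 0.0717, 0.104, 0.0802 and 0.308). With PK9328 it was at -0.18 (95% interval -0.32 to -0.04, edgeR adjusted p = 0.0726).

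CCNE1, cyclin E1 (chromosome 19, 29811898 to 29824308), had 19.9, 19.9 and 20.1 CPM with MS172, 17.1, 16.3 and 16.5 CPM with PK9328, and 15.6, 19.1 and 16.2 CPM with DMSO. CCNE1 rose by 0.23 with MS172 (SE 0.08, edgeR adjusted p = 0.0179), and lost the call without DMSO replicate 1 or 3 (edgeR adjusted p = 0.111 and 0.0703) and with library totals (0.12, edgeR adjusted p = 0.22). CDC25A, the phosphatase that activates the cyclin E kinase, was at 0.24 with MS172 (95% interval 0.04 to 0.43, edgeR adjusted p = 0.0516). CCNE2, cyclin E2, lay at 0.551 to 1.67 CPM, and its interval with MS172, -0.19 to 1.22, was the widest of the 35.

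In the last class UHRF1 fell with PK9328 and UNG with MS172. UHRF1, which carries DNA methylation through replication (chromosome 19, 4903080 to 4962154), had 68.6, 67.5 and 71.4 CPM with MS172, 59.6, 59.5 and 57.5 CPM with PK9328, and 75.9, 72.9 and 70.8 CPM with DMSO. The PK9328 libraries were below all others. UHRF1 fell by 19.6% with PK9328 (log2 -0.31, SE 0.04, edgeR adjusted p = 8.6e-06), further than any of the other 34 genes. SLBP, which binds the stem loop of histone mRNAs (chromosome 4, 1692800 to 1712555), had 61.8, 60.7 and 55.7 CPM with MS172, 54.5, 51.6 and 48.3 CPM with PK9328, and 57.0, 59.0 and 56.8 CPM with DMSO. SLBP fell by 0.16 with PK9328 (SE 0.05, edgeR adjusted p = 0.0289), but lost the call without any DMSO replicate (edgeR adjusted p = 0.069, 0.0798 and 0.052) and without PK9328 replicate 2 or 3 (edgeR adjusted p = 0.0815 and 0.17).

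UNG, uracil DNA glycosylase (chromosome 12, 109097574 to 109110992), had 45.7, 42.3 and 46.9 CPM with MS172, 45.0, 48.7 and 50.0 CPM with PK9328, and 50.4, 54.1 and 54.6 CPM with DMSO. Both compounds lay below DMSO in every library. UNG fell by 15.2% with MS172 (log2 -0.24, SE 0.05, edgeR adjusted p = 0.00093), in all 20 alternatives too, and was at -0.15 with PK9328 (95% interval -0.26 to -0.04, edgeR adjusted p = 0.0567). CHAF1A, the large subunit of a chromatin assembly factor, lay at 45.7 to 52.5 CPM and did not pass in any comparison.

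Of the 21 genes higher with MS172 than with PK9328, 4 (CDT1, MCM7, PCNA and TK1) were called on opposite sides of DMSO. Another 10, among them MCM2, TYMS and UHRF1, were called against DMSO as lower with PK9328 and not with MS172, 3 as higher with MS172 and not with PK9328, and 4 with neither compound. The share of all tested genes with each of these patterns was not counted. PCNA was 37.9% higher with MS172 than with PK9328 (log2 0.46, SE 0.04, edgeR adjusted p = 6.7e-11), TK1 38.7% (log2 0.47, SE 0.05, edgeR adjusted p = 2.7e-09), FEN1 33.1% (log2 0.41, SE 0.06, edgeR adjusted p = 1.1e-06) and MCM7 26.1% (log2 0.34, SE 0.04, edgeR adjusted p = 5.1e-09). Against DMSO the rises of CDT1, MCM7 and PCNA with MS172 were lost with library totals, and that of TK1 with length-scaled TPM. The falls of these 4 genes with PK9328 were lost with the fragment length covariate. Between the compounds PCNA, TK1, FEN1, MCM7 and CDT1 kept the call in all 20 alternatives. E2F2 was the other gene to keep it in all 20, 23.7% lower with MS172 (log2 -0.39, edgeR adjusted p = 0.00488), and GINS3 was 29.5% lower (log2 -0.50, edgeR adjusted p = 0.0002), a call lost with the fragment length covariate (edgeR adjusted p = 0.188).

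By class, 6 of 9 licensing genes, 6 of 13 fork genes, 4 of 4 nucleotide supply genes, 3 of 5 regulators and 2 of 4 chromatin and repair genes were higher with MS172 than with PK9328. Over all tested genes 23.3% were. With library totals only CDT1, MCM7, PCNA, FEN1, TK1 and E2F1 stayed higher, and with the fragment length covariate E2F1 was lost as well. TK1 was thus the only nucleotide supply gene to stay higher in either setting. The call of RRM2 reversed with length-scaled TPM, where it passed as lower with MS172 (log2 -0.19, edgeR adjusted p = 0.0241). The class medians were 0.15, 0.11, 0.19, 0.26 and 0.10. Genes that passed here but not against DMSO were CDC45 (log2 0.22, edgeR adjusted p = 0.0125) and GINS2 (0.26, 0.0153), which act in helicase activation, the ligase LIG1 (0.19, 0.0119) and CDC25A (0.22, 0.0495). The weakest of the calls in this comparison rest on single libraries. CDC45 lost its call without PK9328 replicate 1 (edgeR adjusted p = 0.0752), GINS2 without MS172 replicate 2 or PK9328 replicate 2 (0.0824 and 0.163), and LIG1 without MS172 replicate 3 or PK9328 replicate 2 (0.0557 and 0.0722). CDC25A lost its call in 15 of 20 alternatives, with edgeR adjusted p = 0.066 to 0.215 in the 5 that left out MS172 replicate 2 or 3 or any PK9328 replicate. MCM4 did so without MS172 replicate 2 or PK9328 replicate 1 or 2 (edgeR adjusted p = 0.127, 0.0729 and 0.07), and MCM5 without MS172 replicate 1 or PK9328 replicate 3 (0.0708 and 0.114). RRM1 did so without PK9328 replicate 2 or 3 (edgeR adjusted p = 0.0617 and 0.0514), and POLE without MS172 replicate 3 (0.0541).

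No comparison called 9 of the genes, namely CDC6, MCM6, MCM10, GINS1, POLA1, PRIM1, RFC2, CCNE2 and CHAF1A. They include both DNA primase and polymerase alpha genes of the list. The share of all tested genes that no comparison called was not counted. POLA1, the catalytic subunit of polymerase alpha, was at -0.13 with MS172 (95% interval -0.25 to -0.02, edgeR adjusted p = 0.0727), and MCM10, which recruits it, at -0.19 (95% interval -0.36 to -0.02, edgeR adjusted p = 0.0696). PRIM1, the primase subunit, was at 0.06 with PK9328 (95% interval -0.17 to 0.29), and shares exon sequence with NACA.

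The responses were also counted by the E2F letters. Among the 19 genes with a match 9 fell with PK9328, and among the 13 without a match 4 did, with medians of -0.17 and -0.15. In the direct comparison 12 of 19 and 7 of 13 were higher with MS172. A test of this difference was not made, since a match in this window is a description and 3 genes had no promoter in the table.

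The deposited values are per transcript, and for 4 of the genes named above, chosen after their values were seen, the transcripts are given in detail. UNG has a pair of main coding transcripts, UNG-201 with 313 codons, the nuclear form, and UNG-202 with 304 codons, the mitochondrial form. UNG-202 had 17.3, 16.6 and 19.6 TPM with MS172, 23.9, 25.5 and 25.5 TPM with PK9328, and 25.1, 27.3 and 25.5 TPM with DMSO. UNG-201 had 9.14, 7.55 and 8.17 TPM with MS172, 5.50, 7.30 and 6.31 TPM with PK9328, and 6.79, 9.02 and 8.53 TPM with DMSO. The lower UNG level with MS172 thus lay in the estimates of UNG-202, whose share of the gene was 68.2% ± 2.55 with MS172, 79.0% ± 1.21 with PK9328 and 75.9% ± 1.61 with DMSO (SD, n = 3 each), while UNG-201 overlapped between MS172 and DMSO.

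For MCM7, the coding transcript MCM7-201 had 64.9, 65.2 and 68.9 TPM with MS172, 64.0, 66.8 and 64.1 TPM with PK9328, and 74.3, 84.8 and 79.0 TPM with DMSO. The retained-intron transcript MCM7-210 had 50.5, 51.3 and 51.1 TPM with MS172, 37.6, 38.5 and 42.1 TPM with PK9328, and 44.1, 37.6 and 38.7 TPM with DMSO. So the coding estimate was lower than DMSO with both compounds, and the retained-intron estimate was higher with MS172 alone. These are estimates from the authors' quantification of shared exons, and no test was made on single transcripts.

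RRM2 and POLE held short forms beside their main coding transcripts. The 644-base retained-intron form RRM2-209 had 15.7, 21.2 and 17.1 TPM with MS172, 33.0, 41.1 and 38.9 TPM with PK9328, and 32.9, 26.3 and 32.8 TPM with DMSO. The coding RRM2-201 had 39.4, 40.7 and 37.6 TPM with MS172, 34.2, 38.5 and 34.0 TPM with PK9328, and 43.7, 41.9 and 37.0 TPM with DMSO, where the groups overlapped. In POLE, the 556-base form POLE-204, annotated for nonsense-mediated decay, had 2.90, 3.75 and 2.32 TPM with MS172, 5.86, 5.26 and 7.57 TPM with PK9328, and 4.66, 0 and 2.38 TPM with DMSO. The retained-intron form POLE-217 had 4.59, 5.85 and 6.86 TPM with MS172, 2.81, 1.47 and 2.32 TPM with PK9328, and 3.16, 2.63 and 4.26 TPM with DMSO, highest in the MS172 libraries. Other genes held such forms too, among them MCM4, whose 498-base retained-intron form MCM4-208 had 4.30, 4.98 and 6.12 TPM with MS172, 8.27, 12.1 and 14.0 TPM with PK9328, and 12.3, 9.31 and 10.1 TPM with DMSO. RRM2 and POLE are the 2 genes whose log2 fold change with PK9328 changed sign with length-scaled TPM after passing the test on counts, while MCM4 kept its sign. A link between the short forms and the change of sign was not tested.

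**Figure D5:**
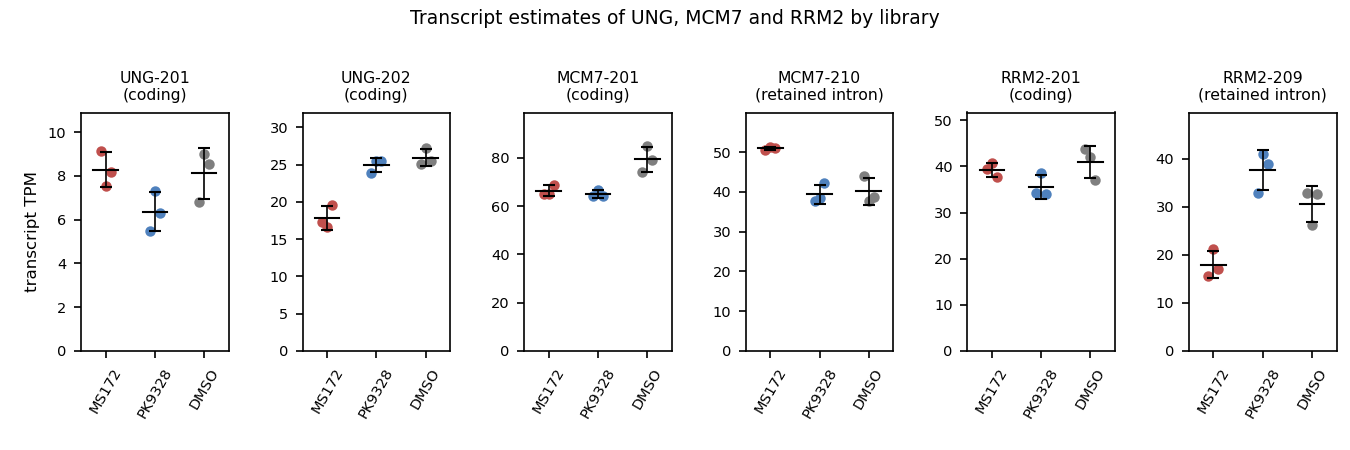
Deposited TPM (y axis, from 0) of 6 transcripts of UNG, MCM7 and RRM2 in the 3 MS172, 3 PK9328 and 3 DMSO libraries; points are libraries, the line is the mean and the bar is ± 1 SD. With MS172, UNG-202 lies at 16.6 to 19.6 TPM and RRM2-209 at 15.7 to 21.2 TPM, below all other libraries, and MCM7-210 at 50.5 to 51.3 TPM lies above them.

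Of 105 other genes of the same pathway, all tested, 18 rose and 18 fell with MS172, and 6 rose and 20 fell with PK9328 (edgeR adjusted p under 0.05). With MS172 34.3% were called, against 35.1% of all tested genes, and with PK9328 24.8%, against 15.5%. Their medians were -0.05 with MS172 and -0.06 with PK9328. In the direct comparison 33 were higher and 25 lower with MS172 (55.2%, against 47.7% of all tested genes), with a median of -0.00. By role, 0 rose and 6 fell with PK9328 among 31 other fork genes, 0 and 3 among 19 nucleotide genes, 0 and 6 among 16 chromatin and repair genes, 3 and 2 among 17 licensing genes, and 3 and 3 among 22 regulators. With MS172 the same lists gave 6 and 5, 4 and 1, 2 and 4, 1 and 4, and 5 and 4. Calls of genes outside the list were not followed through the alternatives. How far they depend on scaling or fragment length was thus not tested.

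CDKN1A, which encodes p21, had 19.1, 21.7 and 20.1 CPM with MS172, 21.5, 24.6 and 24.6 CPM with PK9328, and 15.5, 12.8 and 15.9 CPM with DMSO. All libraries of both compounds lay above those of DMSO. It rose by 0.47 with MS172 (SE 0.08, edgeR adjusted p = 6.8e-05) and by 0.68 with PK9328 (SE 0.08, edgeR adjusted p = 5.5e-07), and was 0.21 lower with MS172 than with PK9328 (log2 -0.21, edgeR adjusted p = 0.0259). CDKN1C, the related inhibitor p57, had 59.5, 63.0 and 62.9 CPM with MS172, 43.0, 41.8 and 38.3 CPM with PK9328, and 40.7, 41.8 and 40.1 CPM with DMSO. It rose by 0.59 with MS172 (SE 0.05, edgeR adjusted p = 2.2e-10) and was at 0.01 with PK9328 (95% interval -0.10 to 0.11).

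In the TMM-scaled fit PCLAF, a PCNA-binding factor, and MYBL2, a transcription factor of the cell cycle, lay on opposite sides of DMSO like PCNA. PCLAF had 51.9, 53.7 and 51.6 CPM with MS172, 35, 35.6 and 36.3 CPM with PK9328, and 46.2, 41.0 and 39.9 CPM with DMSO, and it rose by 0.31 with MS172 (edgeR adjusted p = 5.2e-05) and fell by 0.25 with PK9328 (edgeR adjusted p = 0.00174). MYBL2 had 205, 209 and 209 CPM with MS172, 156, 167 and 167 CPM with PK9328, and 192, 182 and 189.9 CPM with DMSO, and it rose by 0.14 with MS172 (edgeR adjusted p = 0.00311) and fell by 0.20 with PK9328 (edgeR adjusted p = 0.00026). TOP2A, the topoisomerase that untangles copied DNA, averaged 295 ± 2.26 CPM with MS172, 237 ± 7.54 with PK9328 and 279.8 ± 7.32 with DMSO, and fell by 0.24 with PK9328 (edgeR adjusted p = 1.5e-05).

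Origin recognition and GINS genes outside the list included further differences with MS172 and, for ORC4, with PK9328. ORC2, an origin recognition subunit, averaged 19.1 ± 0.822 CPM with MS172, 27.3 ± 0.620 with PK9328 and 25.8 ± 1.19 with DMSO, and fell by 0.43 with MS172 (edgeR adjusted p = 4.8e-06). ORC4, another subunit, averaged 50.4 ± 2.33, 57.6 ± 2.02 and 47.0 ± 1.84 CPM in the same order of groups, and rose by 0.29 with PK9328 (edgeR adjusted p = 0.00011). With MS172 ORC4 was at 0.10 (edgeR adjusted p = 0.123). ORC5 averaged 37.8 ± 2.86, 49.3 ± 2.02 and 47.2 ± 1.73 CPM in that order, and fell by 0.32 with MS172 (edgeR adjusted p = 4.9e-05). ORC3 and ORC6 did not pass against DMSO. GINS4, the remaining GINS subunit, averaged 116 ± 1.46 CPM with MS172, 135 ± 3.30 with PK9328 and 143 ± 2.16 with DMSO, and fell by 0.31 with MS172 (edgeR adjusted p = 1.5e-07). With GINS3, this made 2 of the 4 GINS genes lower with MS172, where 17.2% of all tested genes were.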

How the data were processed

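RNA of 9 libraries, 3 per group, had been sequenced from poly(A)-selected RNA, per the labels. The genotype label of the cells is not reported here. The deposited tables hold an estimated count and a TPM for each of 197653 transcripts, with lengths, per the file headers, and TPM had been scaled by the authors to transcript length. FastQC 0.11.8 and hg38 are named in the submitters' processing notes, and the quantification program is not given in the sources used here. Estimated counts of the 193505 transcripts matched to GENCODE 29 were summed per gene and rounded, and unmatched transcripts held 0.356% to 0.382% of a library's reads. The quasi-likelihood test of edgeR 4.0.16 (R 4.3.3; TMM, filterByExpr, robust) was fitted on all 9 libraries without a replicate term, with 6 residual degrees of freedom. P-values were adjusted by Benjamini-Hochberg over the 13914 tested genes, and an adjusted p under 0.05 counts as a rise or fall. SEs were derived from each fold change with its F value, intervals are 95% intervals, and the common coefficient of variation was 0.044. CPM used TMM-scaled library sizes. The fit was tested on simulated counts.

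The 35 genes, the gene lists and the tests were chosen with earlier results of these data known. Genes with values in every library were, per role, the 2 with the smallest p against DMSO with each compound (3 for licensing and fork) and the 5 with the smallest p between the compounds. Outside the list, the 3 with the smallest p in each comparison and CDKN1A were taken. ORC3, ORC5 and ORC6 were added beside ORC2 and ORC4 after their values were seen. MCM6 and the transcripts were chosen after their values were seen. Alternatives were RLE, upper quartile and library total scaling, DESeq2 1.42.0, limma-voom (limma 3.58.1), 2 other filters, a replicate block, length-scaled TPM, the 6 libraries compared, a fragment length covariate, offsets for GC content and length (mgcv 1.9.3) and each library left out. Summing coding transcripts only was added after seeing the data. Fragment length was estimated from transcripts of 3000 bases or more, as their length less their effective length.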

Additional observations from a re-analysis of the deposited data

How the results depend on the processing

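With MS172 against DMSO, the 11 calls among the 35 genes became 18 with library totals. The 7 rises became 4 with the upper quartile, 1 with library totals and 3 with length-scaled TPM (4 to 7 with a library left out, 4 without DMSO replicate 1), and the 4 falls became 12 with the upper quartile and 17 with library totals (3 to 6). With PK9328, the 15 calls, all falls, became 7 with length-scaled TPM and 0 with the fragment length covariate (10 to 15). Between the compounds the 23 calls became 15 with library totals and 6 with the covariate. Of these the 21 genes higher with MS172 became 6 with library totals, 13 with length-scaled TPM and 5 with the covariate (16 to 20), and the 2 lower ones 5 with the upper quartile, 9 with library totals, 4 with length-scaled TPM and 1 with the covariate (2 to 3). The sign turned for MCM7 with MS172 (-0.013 with library totals, -0.120 with coding transcripts), for POLE and RRM2 with PK9328 (0.101 and 0.072 with length-scaled TPM) and, between the compounds, for MCM4 (-0.027 with library totals, -0.045 with length-scaled TPM), MCM6 (-0.112 with library totals), RRM1 (-0.025 with library totals) and RRM2 (-0.188 with length-scaled TPM). The causes were not tested.

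Over all tested genes, library totals moved the median to -0.13 with MS172, 0.04 with PK9328 and -0.17 between the compounds, and the split of higher and lower calls to 980 and 4474 (2486 and 2398 under TMM), 1474 and 605 (1110 and 1041), and 1302 and 5747 (3240 and 3401). The upper quartile gave 1665 and 3299 with MS172 and 2441 and 4167 between the compounds, and the offset that also set library levels 3381 and 1784, and 4218 and 2623. Calls with PK9328 numbered 2151, but 1080 with length-scaled TPM, 175 (109 and 66) with the covariate, 1384 without DMSO replicate 1 and 1400 without PK9328 replicate 2. Between the compounds 6641 became 2462 with the covariate, and the 2398 falls with MS172 became 1545 with length-scaled TPM. A replicate block gave 6 rises and 4 falls with MS172, 0 and 14 with PK9328 and 20 and 2 between the compounds. Over all tested genes same-numbered libraries did not deviate together (correlations -0.057 to 0.017). Such correlations cannot settle whether the numbers pair libraries, since a pairing that touches only some genes would be missed. At this depth genes near 1 CPM, such as CCNE2, could show only large changes.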
